A study of Saccharomyces cerevisiae with 12 samples.

Results

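Total mRNA of the ΔES27Lb strain of *Saccharomyces cerevisiae* was compared with total mRNA of its wildtype across all genes. The libraries were chosen by their titles alone, 3 of ΔES27Lb and 3 of wildtype, which are 6 of the 12 libraries of the series. The other 6 hold polysomal mRNA of the same strains and are used here only to set values side by side. Of 7126 gene IDs in the files, 5989 passed the filter on low counts and were tested.

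Both strains derive from NOY891, which is *MATa* and carries *ade2–1*, *ura3–1* and *leu2–3* as well as *his3–11*, *trp1* and *can1–100*. In both, the chromosomal rDNA repeats are deleted and marked by *HIS3* (*rdn1ΔΔ::HIS3*). Per the methods, rRNA of the 35S precursor comes from the *URA3* plasmid pJD694, which took the place of the *TRP1* plasmid pNOY353. It has a multicopy 2μ origin, a tetracycline-repressible RNA polymerase II promoter before the 35S rDNA and a Hygromycin B resistance mutation in the 18S rRNA. *TRP1* was abundant in both strains, at 3656 to 9532 CPM, so whether pNOY353 was lost from these cultures cannot be told from the counts. The study reports its loss because the cells did not grow without tryptophan, and its primer extension found only mutant ribosomes in ΔES27Lb. In ΔES27Lb the 25S rRNA on pJD694 lacks the b-arm of expansion segment ES27L, and in wildtype it is complete. Both strains were grown in YPD to an OD of 0.8 (the labels name YPD alone, while the methods add Hygromycin B for extraction of total RNA), RNA was extracted with hot phenol, and poly(A)-containing RNA was sequenced. Nothing in the labels says that the replicates came from separate cultures, so p-values measure only the spread between these libraries. Because reads were summed over whole genes, the files do not show where within the 25S rRNA reads are missing. The identity of each strain therefore rests on its label.

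Expansion segments are stretches of rRNA that eukaryotic ribosomes have in addition to the conserved core. ES27L is a long and flexible one of the large subunit, and its arm can reach the exit of the peptide tunnel, where enzymes and chaperones meet the nascent protein. Methionine aminopeptidases, N-terminal acetyltransferases, the signal recognition particle and Hsp70 chaperones all act at that place. Total mRNA is set by transcription and decay, and so it shows what a cell with an altered ribosome makes available for translation, not how well it is translated.

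Each library held between 15050764 and 21532842 counts. Taken over all genes, pairs of replicates differed by more than counting error (chi-square per degree of freedom 69.35 to 545.7). Levels are given as CPM, a gene's counts scaled to one common library total, after correction with TMM factors, which ranged from 0.8 to 1.11. The replicates of ΔES27Lb had Pearson correlations of 0.942 to 0.971 across 5240 genes, and those of wildtype 0.829 to 0.932. The median SD of a gene over replicates was 0.272 on the log2 scale in ΔES27Lb and 0.40 in wildtype. The first principal component held 54.3% of the variance and placed the 3 ΔES27Lb libraries at 2.73, -3.33 and 25.2, against -41.8, -11.3 and 28.4 for wildtype. It did not separate the strains, and the widest gap lay between wildtype replicates 1 and 3. *MATa* marker genes summed to between 311.1 and 786.5 CPM in ΔES27Lb and to between 405.5 and 565.3 CPM in wildtype. Markers of *MATα* cells summed to between 26.75 and 44.84 CPM in ΔES27Lb and to between 22.28 and 36.94 CPM in wildtype, and 3 of those 4 genes were above the filter.

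No gene passed an adjusted p of 0.05 in the quasi-likelihood test of edgeR (0 of 5989, 0%), and the smallest adjusted p was 0.92. At an unadjusted p of 0.05 or less, 89 genes were higher in ΔES27Lb (1.49% of the genes tested) and 69 were lower (1.15%). With the replicate block, which follows the replicate numbers of the labels, edgeR still called 0 genes, with a smallest adjusted p of 0.15, and these counts were 171 higher and 112 lower. The Wald test of DESeq2 called 4 genes at an adjusted p of 0.05 (0.0669% of 5978 genes with an adjusted p), of which *ARG1* was higher in ΔES27Lb and *YLR149C-A*, *RDN37-1* and *RDN37-2* were lower. The *RDN37* copies are near-identical and may not count as separate genes here. DESeq2 with the replicate block, an alternative chosen after seeing the data, called 13 (0.217%). These were *ARG1*, *HIS3*, *ASP3-3*, *ASP3-4*, *ATG41* and *SRX1*, which were higher, and *GID11*, *YLR149C-A*, *RDN37-1*, *INO1*, *COS10* and the snoRNA genes *snR38* and *snR54*, which were lower.

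The differences were small for most genes. Their median was -0.03 on the log2 scale, their SD over genes 0.449, and the median standard error of a single difference 0.328. A difference of more than 1 in size was seen for 2.97% of the genes. In 284 genes all 3 ΔES27Lb libraries lay above all 3 wildtype libraries (4.74%), and in 225 genes they lay below (3.76%). An exact permutation test of 3 against 3 libraries cannot give a p below 0.10 for a single value, so separation of the libraries is given as a description.

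**Figure D1:**
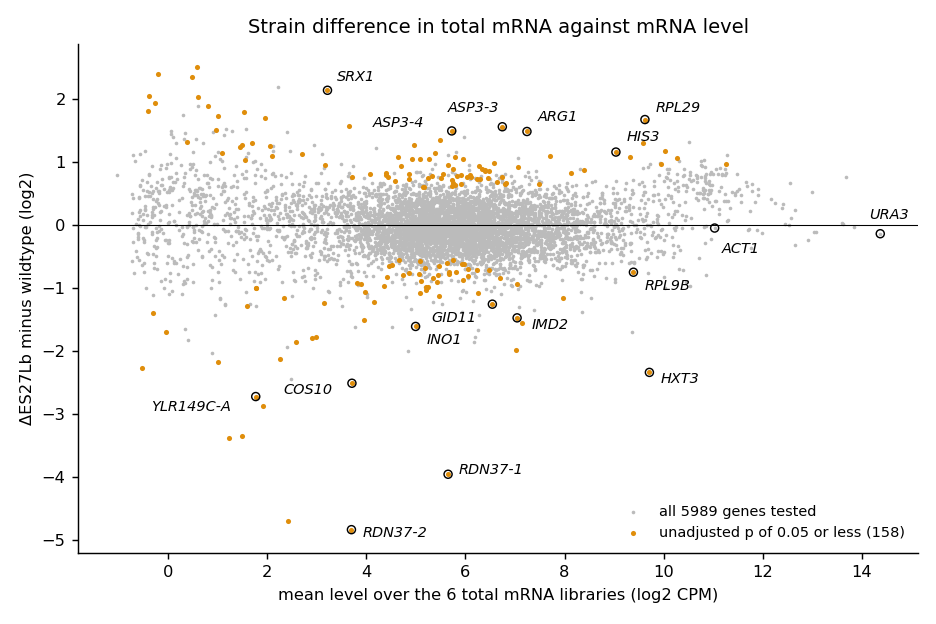
Each point is a gene, with its mean level over the 6 total mRNA libraries (log2 CPM) on the x axis and the difference ΔES27Lb minus wildtype (log2) on the y axis. Orange points have an unadjusted p of 0.05 or less in edgeR (158 genes). Most genes lie close to 0, *ARG1*, *HIS3* and the *ASP3* genes lie above it, and *INO1*, *GID11* and *RDN37-1* lie below it.

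Genes of arginine synthesis had higher means in ΔES27Lb. *ARG1*, which encodes argininosuccinate synthetase, had 166, 229 and 273 CPM in ΔES27Lb, against 67.6, 83.2 and 89.1 CPM in wildtype. Every ΔES27Lb library was above every wildtype library, and the means were 223 ± 53.8 and 80.0 ± 11.1 CPM (SD, n = 3 each). The log2 difference was 1.48 (SE 0.304), or 2.79-fold, with an adjusted p of 0.92 in edgeR and of 0.0044 in DESeq2. Over all alternatives the log2 difference of *ARG1* lay between 1.18 and 1.65.

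All 10 genes of arginine synthesis had a higher mean in ΔES27Lb, with log2 differences between 0.34 and 1.48 and a median of 0.53, against a median of -0.03 over all genes tested. The libraries did not overlap for 5 of them, *ARG1*, *ARG3*, *ARG5,6*, *ARG7* and *CPA1*, which is 50% of the list against 4.74% of all genes. This list, like the other gene lists here, was drawn up with earlier results of these data known, so such shares are descriptions. *ARG3*, the gene of ornithine carbamoyltransferase, had 56.9, 72.2 and 61.6 CPM in ΔES27Lb, against 14.4, 55.3 and 41.0 CPM in wildtype. *CPA1*, the small subunit of the arginine-specific carbamoyl phosphate synthetase, had 603, 475 and 454 CPM in ΔES27Lb, against 446, 358 and 272 CPM in wildtype. In both genes the highest wildtype library came close to the lowest ΔES27Lb library. Summed over the 10 genes, the level was 1813, 2016 and 1867 CPM in ΔES27Lb, against 1249, 1312 and 1208 CPM in wildtype. The sums were close together within each strain and did not overlap between them. The median of the list was between 0.42 and 0.59 in every alternative, and all 10 means were higher in each of them. *ARG1* alone of the 10 genes reached an unadjusted p of 0.05, and this number was 3 with the replicate block, 3 with length and GC offsets, 7 with both and 5 with all 12 libraries.

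Other genes of amino acid synthesis that the transcription factor Gcn4 activates differed less. Of 53 such genes, 42 had a higher mean in ΔES27Lb, and the median log2 difference was 0.25, with a range of 0.14 to 0.35 over the alternatives. The libraries lay apart and higher in ΔES27Lb for 9 of them (17%), and lay apart and lower for 0. *HIS5*, which encodes histidinol-phosphate aminotransferase, had 170, 222 and 261 CPM in ΔES27Lb, against 126, 144 and 146 CPM in wildtype, a log2 difference of 0.65 (SE 0.289, unadjusted p 0.048, adjusted p 0.92). *ASN1*, an asparagine synthetase gene, had 1034, 1054 and 1206 CPM in ΔES27Lb, against 1024, 741 and 584 CPM in wildtype. *GDH1*, the NADP-dependent glutamate dehydrogenase that makes glutamate from ammonium, had 882, 844 and 1055 CPM in ΔES27Lb, against 736, 582 and 626 CPM in wildtype. In *ASN1* the separation rests on a margin of a few CPM to wildtype replicate 1, while in *HIS5* and *GDH1* the gap was wider. *HIS4*, *ILV6*, *LYS2* and *TRP3* of histidine, branched-chain, lysine and tryptophan synthesis were also above wildtype in every library. So was *CPA1*, which is counted among the genes of arginine synthesis as well. *GCN4* itself had 2503, 1785 and 1583 CPM in ΔES27Lb, against 1495, 1998 and 1434 CPM in wildtype, and the libraries overlapped (log2 difference 0.25, SE 0.332).

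*HIS3*, imidazoleglycerol-phosphate dehydratase, was the ninth of these 9 genes. It had 680, 618 and 875 CPM in ΔES27Lb, against 208, 333 and 436 CPM in wildtype. The libraries did not overlap, and the log2 difference was 1.15 (SE 0.358), with an unadjusted p of 0.0097, an adjusted p of 0.92 in edgeR and of 0.031 in DESeq2 with the replicate block. Since *HIS3* also marks the deleted rDNA in both strains, reads of the marker and of the *his3–11* allele cannot be told apart.

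Genes that serve the use of poor nitrogen sources were higher in part. Of 30 tested genes under nitrogen catabolite repression, 22 had a higher mean in ΔES27Lb, the median log2 difference was 0.22, and 4 reached an unadjusted p of 0.05, all of them higher (13.3%, against 1.49% of all genes). These were *ASP3-3*, *ASP3-4*, *CAR1* and *GAT1*. The *ASP3* genes are near-identical copies whose split of reads is uncertain, so they may not count as separate genes here. The median was 0.03 without ΔES27Lb replicate 1, 0.09 without wildtype replicate 2 and 0.14 with the replicate block. *CAR1*, the arginase that starts the breakdown of arginine, had 175, 146 and 204 CPM in ΔES27Lb, against 61.6, 77.9 and 139 CPM in wildtype (log2 difference 0.92, SE 0.355, unadjusted p 0.029). *GAT1*, a GATA activator of this group, had 110, 103 and 156 CPM in ΔES27Lb, against 63.4, 69.9 and 96.6 CPM in wildtype. Neither gene overlapped between the strains, and neither passed the adjusted p (0.92 each). For the ammonium permease genes *MEP1*, *MEP2* and *MEP3* the libraries overlapped.

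**Figure D2:**
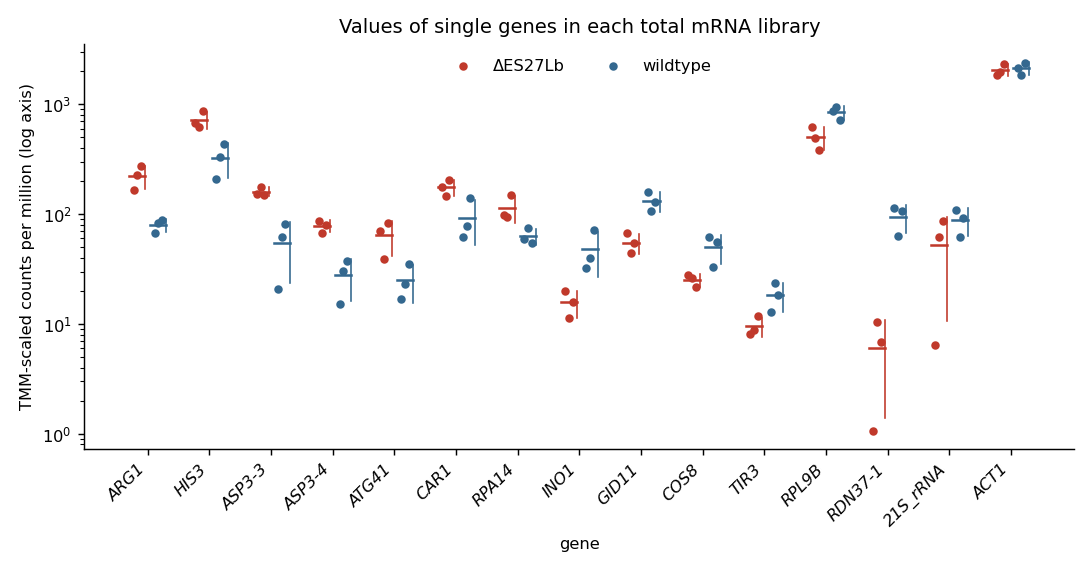
TMM-scaled CPM on a log axis for 15 genes, with ΔES27Lb in red to the left and wildtype in blue to the right, 3 libraries each. The horizontal bar is the mean and the vertical bar the SD. *ARG1*, *HIS3* and the *ASP3* genes lie higher in ΔES27Lb in every library, *INO1*, *GID11* and *RPL9B* lie lower, *21S_rRNA* overlaps with ΔES27Lb replicate 1 low, and *ACT1* overlaps.

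The *ASP3* genes encode the cell-wall asparaginase that is made in nitrogen starvation, and they sit beside the chromosomal rDNA locus. *ASP3-3* had 154, 177 and 149 CPM in ΔES27Lb, against 20.9, 61.5 and 81.0 CPM in wildtype. *ASP3-4* had 86.2, 67.3 and 80.3 CPM in ΔES27Lb, against 15.1, 30.3 and 37.8 CPM in wildtype. Both were higher in ΔES27Lb in every library, by log2 differences of 1.55 (SE 0.445) and 1.49 (SE 0.337), with adjusted p of 0.92 in edgeR and of 0.0042 and 0.0077 in DESeq2 with the replicate block. The copies are near-identical, and how reads that match more than 1 of them were counted is not given in the sources used here, so the split between them is uncertain. The next gene, *YLR161W*, an uncharacterized open reading frame that is itself repeated in this region, had only 2.66, 2.48 and 1.66 CPM in ΔES27Lb, against 0.842, 0.286 and 0.542 CPM in wildtype (log2 difference 2.03, SE 0.545).

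This neighbourhood was chosen after its values were seen. In both strains the rDNA repeats at this locus are deleted and marked by *HIS3*, so the rDNA here means its place in R64. In the gene order of the R64 annotation, 45 tested protein-coding genes around the place of the *RDN37* copies included 9 whose libraries were all higher in ΔES27Lb and 2 whose libraries were all lower, against 4.74% and 3.76% of all genes. The number of lower genes is near that background. Among the 9, *ASP3-3* and *ASP3-4* are near-identical copies that may not count as separate genes. *YLR161W*, also among them, is repeated in this region and so low that it can pass the filter through a single strain. *GID11*, on the other side of the rDNA from *ASP3* and a substrate receptor of the GID ubiquitin ligase, had 66.7, 44.0 and 54.4 CPM in ΔES27Lb, against 158, 106 and 130 CPM in wildtype. Each ΔES27Lb library was lower than each wildtype library, with a log2 difference of -1.26 (SE 0.286), an adjusted p of 0.92 in edgeR, of 0.069 in DESeq2 and of 0.0089 in DESeq2 with the replicate block. *YLR149C-A*, a small open reading frame that shares the systematic number of *GID11* (*YLR149C*), had 0.766, 1.29 and 0.498 CPM in ΔES27Lb, against 10.9, 3.38 and 3.0 CPM in wildtype. It was also lower in every library (log2 difference -2.72, SE 0.656, adjusted p 0.029 in DESeq2). At this level it can pass the filter through the wildtype libraries alone. *RNH203* and *ACS2*, which lie closest to the rDNA on that side, had log2 differences of 0.33 (SE 0.248) and 0.01 (SE 0.334), and their libraries overlapped. *MAS1*, the next gene beyond *YLR161W*, had a log2 difference of 0.13 (SE 0.261).

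**Figure D3:**
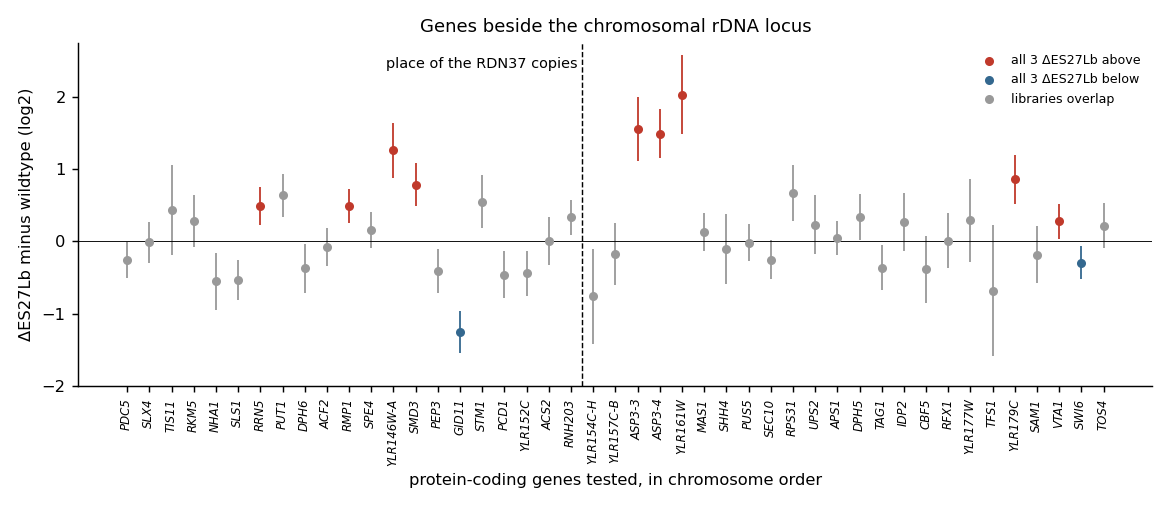
Log2 difference ΔES27Lb minus wildtype with its standard error (y axis) for 45 tested protein-coding genes in the order of the R64 annotation (x axis). The dashed line is the place of the *RDN37* copies in R64, which are deleted and marked by *HIS3* in both strains. Red genes had all 3 ΔES27Lb libraries above wildtype (9 genes) and blue genes had all 3 below (2 genes). *ASP3-3*, *ASP3-4* and *YLR161W* stand next to each other on the right, and 14 of the 45 genes differ by more than 0.5 in size.

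Reads on the 35S rRNA gene were fewer in ΔES27Lb. *RDN37-1* had 1.07, 10.4 and 6.81 CPM in ΔES27Lb, against 113, 63.2 and 106 CPM in wildtype, and *RDN37-2* had 0.0511, 1.66 and 0.914 CPM in ΔES27Lb, against 47.7, 9.96 and 17.3 CPM in wildtype. None of the libraries overlapped. The log2 difference of *RDN37-1* was -3.95 (SE 0.668), with an adjusted p of 0.92 in edgeR, where the unadjusted p was 0.00018, of 1.9e-06 in DESeq2 and of 1.8e-12 in DESeq2 with the replicate block. For *RDN37-2* the adjusted p was 4.4e-06 in DESeq2 and 0.29 in DESeq2 with the replicate block. Its ΔES27Lb libraries held 1, 32 and 11 counts, against 736, 174 and 414 in wildtype. A gene this low in a strain can pass the filter through the libraries of the other. The copies are near-identical, so the split of reads between them is uncertain. Poly(A) selection removes nearly all rRNA, so these reads are what remained after it, or polyadenylated forms, and they do not measure the amount of rRNA. The stretch deleted in ΔES27Lb lies within the 35S rRNA gene, and whether its loss plays a part in the lower counts was not tested. The mitochondrial *21S_rRNA*, chosen after its values were seen, had 6.38, 62.5 and 87.0 CPM in ΔES27Lb, against 110, 61.3 and 92.7 CPM in wildtype. It was low in ΔES27Lb replicate 1 only. How much rRNA each library carried through the selection was not tested. In polysomal mRNA, *RDN37-1* had 5.82, 1.18 and 2.94 CPM in ΔES27Lb, against 2.21, 0.479 and 0.944 CPM in wildtype, and there the libraries overlapped. *RDN5-1*, a 5S rRNA gene, had 26.2, 19.8 and 22.8 CPM in ΔES27Lb, against 25.6, 22.7 and 25.8 CPM in wildtype.

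*INO1* was lower in every ΔES27Lb library. It encodes inositol-3-phosphate synthase, the first enzyme of inositol synthesis. *INO1* had 20, 11.3 and 15.8 CPM in ΔES27Lb, against 32.1, 39.6 and 71.9 CPM in wildtype. All ΔES27Lb libraries were below all wildtype libraries, with means of 15.7 ± 4.37 and 47.9 ± 21.1 CPM (SD, n = 3 each). The log2 difference was -1.61 (SE 0.365), with an adjusted p of 0.92 in edgeR, of 0.071 in DESeq2 and of 0.011 in DESeq2 with the replicate block. Over the 20 genes of inositol and phospholipid synthesis the median log2 difference was -0.04, and *INO1* was the only gene of that list whose libraries did not overlap.

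*TIR3* and *TIR1* encode cell wall mannoproteins of the anaerobic and cold-induced kind. *TIR3* had 8.12, 8.84 and 11.7 CPM in ΔES27Lb, against 12.8, 23.6 and 18.2 CPM in wildtype (log2 difference -0.93, SE 0.337, unadjusted p 0.021). *TIR1* had 6.38, 4.24 and 5.07 CPM in ΔES27Lb, against 4.73, 22.6 and 9.80 CPM in wildtype (log2 difference -1.24, SE 0.54, unadjusted p 0.046). *TIR3* was separate between the strains and *TIR1* was not. *TIR2* of the same family was separate and higher, with 13.3, 13.2 and 14.0 CPM in ΔES27Lb, against 5.96, 10.6 and 8.96 CPM in wildtype. Of the 23 tested mannoprotein genes, 4 were separate and higher (17.4%, against 4.74% of all genes), namely *TIR2*, *CCW12*, *CIS3* and *PRY2*, and 1 was separate and lower. Their median log2 difference was near 0.

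Several low differences were carried by wildtype replicate 1. *IMD2*, an IMP dehydrogenase gene of guanine nucleotide synthesis, had 55.7, 88.2 and 65.6 CPM in ΔES27Lb, against 373, 119 and 90.7 CPM in wildtype. *COS10*, a subtelomeric gene, had 4.14, 5.02 and 2.41 CPM in ΔES27Lb, against 50.5, 9.10 and 7.0 CPM in wildtype. Although neither gene overlapped, the wildtype replicates themselves spread several-fold. *COS8* was more even, with 28.1, 26.0 and 21.6 CPM in ΔES27Lb, against 61.7, 33.0 and 55.6 CPM in wildtype (log2 difference -0.99, SE 0.29, unadjusted p 0.0072). The hexose transporter gene *HXT3* had 337, 257 and 237 CPM in ΔES27Lb, against 3680, 409 and 113 CPM in wildtype, and *HXT4* had 67.9, 44.3 and 44.1 CPM in ΔES27Lb, against 483, 102 and 34.4 CPM in wildtype. In both, the ΔES27Lb libraries lay between wildtype replicates 2 and 3. Over 17 tested genes of hexose transport and its sensing, the median log2 difference was -0.58, and without wildtype replicate 1 it was 0.01. *MDM32* of mitochondrial distribution, the mitochondrial elongation factor gene *MEF1*, the transcription factor gene *AZF1* and the noncoding *SRG1*, which represses *SER3*, were the other genes of the 12 lower ones by p, with log2 differences between -1.04 and -0.68 and adjusted p of 0.92.

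The other genes of the 12 higher ones by p had moderate levels. *ATG41*, an autophagy gene whose product helps to form autophagosomes, had 70.3, 39.4 and 82.3 CPM in ΔES27Lb, against 16.8, 22.9 and 35.5 CPM in wildtype (log2 difference 1.35, SE 0.363, adjusted p 0.92 in edgeR and 0.034 in DESeq2 with the replicate block). *RPA14*, a subunit of RNA polymerase I, had 98.8, 94.0 and 150 CPM in ΔES27Lb, against 59.3, 75.0 and 54.6 CPM in wildtype (log2 difference 0.86, SE 0.289). *ISU2*, a scaffold protein of iron-sulfur cluster assembly, had 59.7, 47.4 and 90.1 CPM in ΔES27Lb, against 22.6, 38.7 and 40.6 CPM in wildtype (log2 difference 0.95, SE 0.326). The libraries of all 3 genes were separate. *HPA3*, an acetyltransferase gene, and *ARO5*, *HTC1*, *YLR146W-A* and the glutamate tRNA gene *tE(UUC)G1* had log2 differences between 0.79 and 1.56. *SRX1*, the sulfiredoxin that restores oxidized peroxiredoxins, had 27.1, 4.76 and 13.2 CPM in ΔES27Lb, against 1.30, 0.915 and 7.92 CPM in wildtype, so that its libraries overlapped although each numbered pair was higher in ΔES27Lb.

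Ribosomal protein genes were higher on average, and this moved with coding length and with single libraries. Of 81 genes of the large subunit, 77 had a higher mean in ΔES27Lb, with a median log2 difference of 0.63, and of 57 genes of the small subunit 56 did, with a median of 0.62. Over all genes tested the share with a higher mean was 47%. The libraries lay apart and higher in ΔES27Lb for 12 large-subunit genes (14.8%) and 11 small-subunit genes (19.3%), against 4.74% of all genes. At an unadjusted p of 0.05 or less, 2 large-subunit and 6 small-subunit genes were higher, against 1.49% of all genes, and 0 passed the adjusted p. The share of the large subunit is near that background. These numbers were 3 and 5 with the replicate block, 0 and 0 without ΔES27Lb replicate 3 or without wildtype replicate 1, and 38 and 27 without wildtype replicate 2. Ribosomal protein genes held 25.5%, 25.7% and 32.4% of all counts in ΔES27Lb, against 15.9%, 26.2% and 19.0% in wildtype, so that wildtype replicate 2 lay above ΔES27Lb replicates 1 and 2.

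*RPS13* had 2139, 2155 and 3299 CPM in ΔES27Lb, against 921, 1997 and 1335 CPM in wildtype. *RPL29* had 563, 602 and 2430 CPM in ΔES27Lb, against 193, 507 and 432 CPM in wildtype (log2 difference 1.67, SE 0.619, unadjusted p 0.024), and *RPS30B* had 926, 885 and 2543 CPM in ΔES27Lb, against 447, 850 and 648 CPM in wildtype. ΔES27Lb replicate 3 was far above the others, and wildtype replicate 2 was the wildtype library closest to ΔES27Lb. Without ΔES27Lb replicate 3 the median of large-subunit genes was 0.32, without wildtype replicate 1 it was 0.48, and without both it was 0.17, with small-subunit genes at 0.32, 0.47 and 0.18.

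*RPL9B* went against the other ribosomal protein genes. It had 616, 497 and 387 CPM in ΔES27Lb, against 861, 952 and 713 CPM in wildtype, all lower and separate (log2 difference -0.75, SE 0.318, unadjusted p 0.041, adjusted p 0.92). Of the 138 ribosomal protein genes it was the only one whose libraries were all lower in ΔES27Lb. In polysomal mRNA it had 551, 487 and 573 CPM in ΔES27Lb, against 1260, 1045 and 972 CPM in wildtype, again separate. Its paralog *RPL9A* had 1528, 1885 and 2554 CPM in ΔES27Lb, against 1335, 1870 and 983 CPM in wildtype, which overlapped (log2 difference 0.51, SE 0.365). The coding parts of the paralogs are close to identical, so the split of reads between them is uncertain.

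Across 5685 genes the log2 difference between the strains had a Spearman correlation of -0.52 with coding length, given as a description because genes are not independent replicates. With genes sorted by coding length into 10 bins, the median log2 difference was 0.35 in the shortest bin (median 321 bases), and in the longest bin (median 3675 bases) it was -0.26. The relation lay in single libraries, with a correlation between length and a library's deviation from the mean of the 6 of -0.19, 0.16 and -0.55 in ΔES27Lb and of 0.47, 0.13 and -0.08 in wildtype. Without ΔES27Lb replicate 3 and wildtype replicate 1 the correlation of the strain difference was -0.058. With offsets for length and GC content it was -0.029, and the medians of large- and small-subunit ribosomal protein genes were 0.23 and 0.24. Ribosomal protein genes have a median coding length of 433.5 bases, against 1236 bases for all genes tested.

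**Figure D4:**
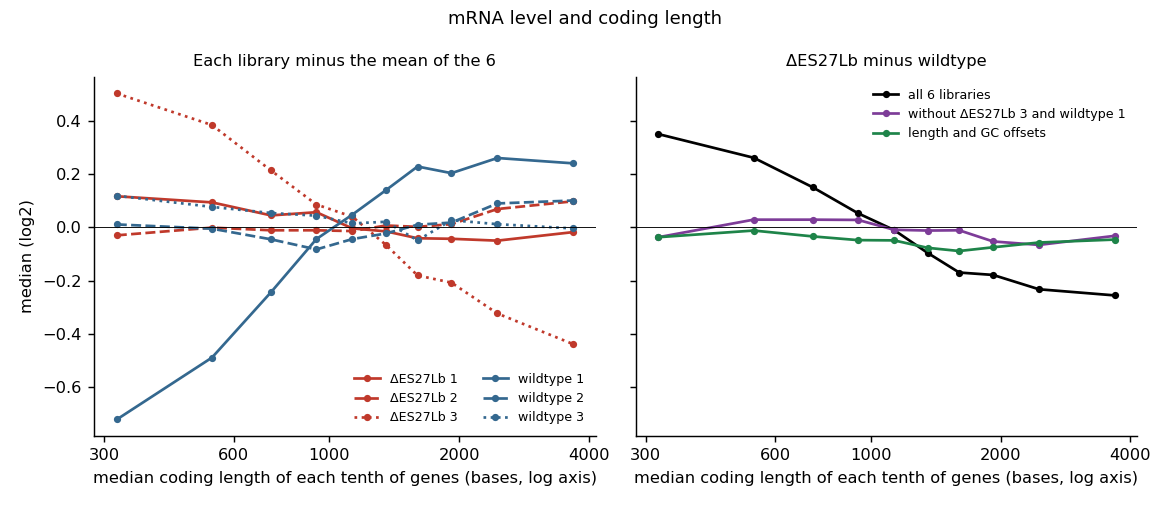
Median log2 values over 10 bins of genes by coding length (x axis, bases, log axis). On the left each line is a library minus the mean of the 6 (ΔES27Lb red, wildtype blue), and on the right is ΔES27Lb minus wildtype with all 6 libraries, without ΔES27Lb 3 and wildtype 1, and with offsets for length and GC content. ΔES27Lb 3 and wildtype 1 run in opposite directions, and the strain difference runs from 0.35 in the shortest bin to -0.26 in the longest with all 6 libraries.

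Genes that assemble ribosomes had lower means, unlike the ribosomal protein genes. The median log2 difference was -0.31 over 63 genes of 60S assembly and -0.29 over 62 genes of the small-subunit processome and snoRNPs, and the libraries did not separate for a single gene of either list. The spread among wildtype replicates was larger than this. Relative to the mean of the 6 libraries, the 60S assembly genes had medians of -0.01, 0.14 and -0.32 in ΔES27Lb, against 0.90, 0.46 and -1.24 in wildtype. Without wildtype replicate 3 the median difference was -0.72, and without wildtype replicate 1 it was 0.12.

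The environmental stress genes driven by Msn2 and Msn4 had medians of 0.01, -0.65 and 0.40 in ΔES27Lb, against -0.73, -0.80 and 1.67 in wildtype, and their median difference of -0.52 was 0.72 without wildtype replicate 3. Of 37 genes, 0 had separate libraries. Cytosolic heat shock genes had medians of 0.32, -0.57 and 0.11 in ΔES27Lb, against -0.16, -0.79 and 0.98 in wildtype. Wildtype replicate 3 thus had high stress genes and low assembly genes, and wildtype replicate 1 low stress genes and high assembly genes. Whether this difference between wildtype libraries plays a part in the other results was not tested, and without wildtype replicate 3 399 genes were higher and 409 lower at an unadjusted p of 0.05, with 0 past the adjusted p of edgeR.

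**Figure D5:**
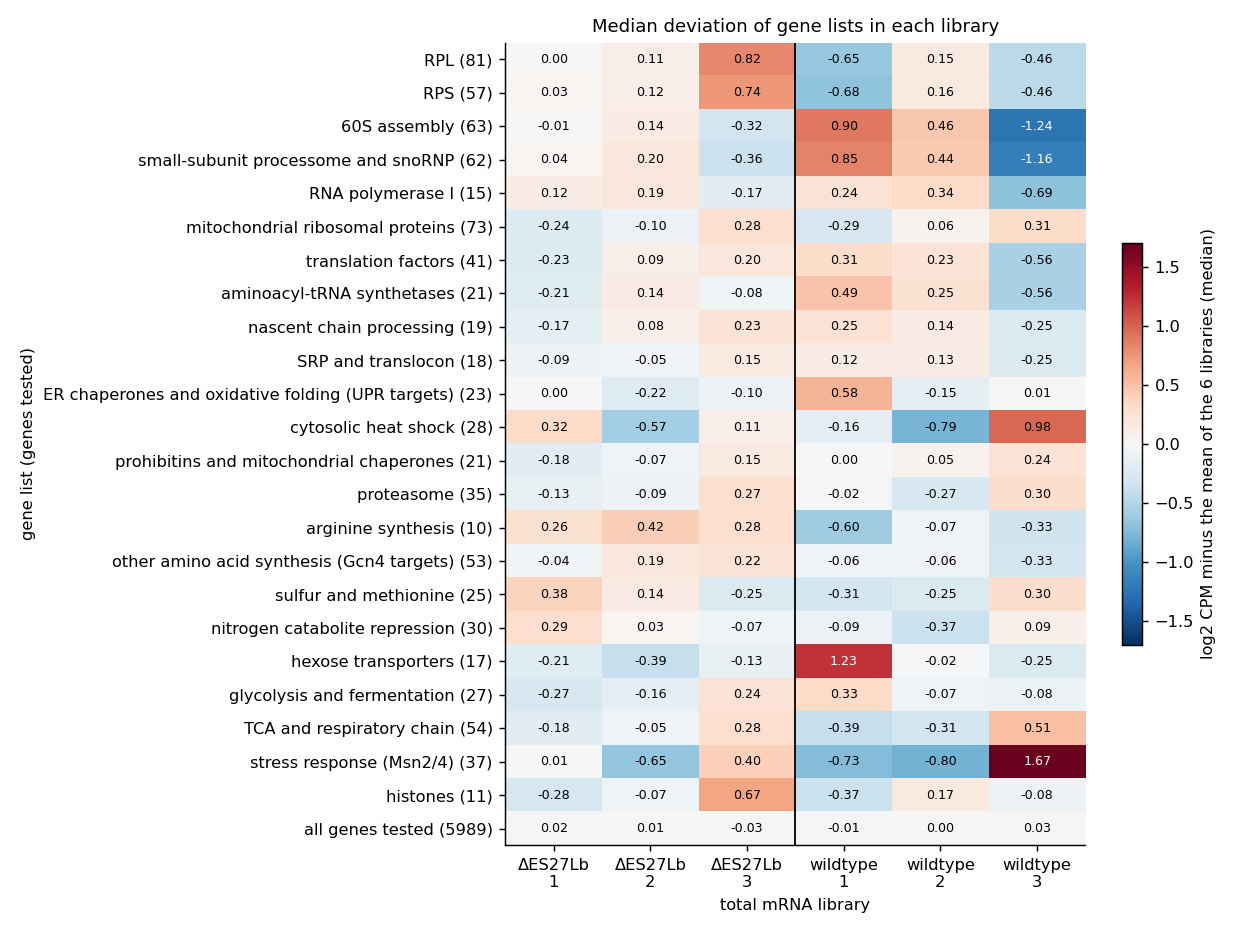
Median over the tested genes of each list (rows, number of genes in brackets) of log2 CPM minus the mean of the 6 libraries, for each library (columns, ΔES27Lb to the left). Arginine synthesis is positive in all ΔES27Lb libraries (0.26, 0.42 and 0.28) and negative in all wildtype libraries (-0.60, -0.07 and -0.33). Stress response genes run from -0.80 to 1.67 and 60S assembly genes from -1.24 to 0.90 among wildtype libraries.

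The nuclear genes of mitochondrial ribosomal proteins had libraries that were apart and lower in ΔES27Lb for 14 of 73 genes (19.2%, against 3.76% of all genes), and apart and higher for 0. *NAM9* of the small subunit had 72.7, 85.5 and 78.0 CPM in ΔES27Lb, against 150, 99.2 and 105 CPM in wildtype (log2 difference -0.58, SE 0.273, unadjusted p 0.06). *MRPS35* had 65.9, 89.1 and 88.0 CPM in ΔES27Lb, against 101, 121 and 117 CPM in wildtype. *RSM28* had 83.8, 101 and 105 CPM in ΔES27Lb, against 142, 122 and 154 CPM in wildtype. The gaps between the strains were small, and 0 of the 73 genes reached an unadjusted p of 0.05 (1 lower gene with the replicate block, 4 with length and GC offsets). Over the whole list the median was -0.06, and 32 genes had a higher mean in ΔES27Lb. It was -0.25 with length and GC offsets, -0.37 without ΔES27Lb replicate 3 and wildtype replicate 1, and 0.12 without wildtype replicate 3.

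Of the 20 mitochondrially encoded RNAs in the files 6 passed the filter on low counts, all with a lower mean in ΔES27Lb (median log2 difference -0.94). The median was -0.43 without wildtype replicate 1, where 1 of the genes tested had a higher mean, and -0.59 without ΔES27Lb replicate 1. The summed level was 15.02, 84.88 and 114.3 CPM in ΔES27Lb, against 169.8, 91.32 and 113.3 CPM in wildtype, and the sums overlapped. *COX2*, subunit 2 of cytochrome oxidase, had 0.306, 0.569 and 0.249 CPM in ΔES27Lb, against 1.17, 1.03 and 0.875 CPM in wildtype. Its libraries were separate at these low levels (unadjusted p 0.031). A gene this low can pass the filter through the libraries of a single strain, as *COX2* did through wildtype. The shared direction of the tested genes may thus be partly set by the filter. *AI1*, encoded in an intron of *COX1*, had 1.84, 3.88 and 4.24 CPM in ΔES27Lb, against 25.8, 5.38 and 3.42 CPM in wildtype, where 1 library was high. Nuclear genes of the TCA cycle and respiratory chain had a median of -0.03 over 54 genes, which was 0.37 without wildtype replicate 3 and -0.26 with length and GC offsets.

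For most genes that act on the nascent chain at the tunnel exit, the libraries overlapped between the strains. *MAP1*, the main methionine aminopeptidase, had 268, 264 and 309 CPM in ΔES27Lb, against 320, 252 and 187 CPM in wildtype. *NAT1*, the ribosome-binding subunit of the N-terminal acetyltransferase NatA, had 106, 125 and 99.3 CPM in ΔES27Lb, against 242, 149 and 114 CPM in wildtype, and the catalytic subunit *ARD1* had 91.9, 106 and 145 CPM in ΔES27Lb, against 76.7, 109 and 86.5 CPM in wildtype. Both overlapped (log2 differences -0.61, SE 0.334, and 0.33, SE 0.29), as did *MAP2* (-0.14, SE 0.304). Of 19 genes of nascent chain processing, 10 had a higher mean in ΔES27Lb, and only *NAT5*, the third NatA subunit, had separate libraries, with 88.2, 95.3 and 93.9 CPM in ΔES27Lb, against 50.3, 77.0 and 64.2 CPM in wildtype (unadjusted p 0.0638).

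In the signal recognition particle and translocon, 9 of 18 genes had a higher mean, with a median of -0.02 that ranged between -0.16 and 0.14 over the alternatives. *SEC65*, a subunit of the particle, had 140, 146 and 203 CPM in ΔES27Lb, against 160, 146 and 123 CPM in wildtype. *SEC62* was separate, with 176, 170 and 211 CPM in ΔES27Lb, against 152, 147 and 148 CPM in wildtype, and its log2 difference of 0.32 had an SE of 0.266. The targets of the unfolded protein response in the ER had a median of -0.15 over 23 genes (-0.41 without ΔES27Lb replicate 1), with 1 gene, *EPS1* of the protein disulfide isomerase family, separate and lower, and 0 genes reaching an unadjusted p of 0.05 (2 lower genes with the replicate block). *HAC1*, whose mRNA splicing starts that response, had 810, 279 and 212 CPM in ΔES27Lb, against 563, 291 and 364 CPM in wildtype. Gene counts do not tell its spliced from its unspliced form.

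The genes whose products or polysomal mRNA the study followed overlapped in total mRNA. The prohibitin genes *PHB1* and *PHB2* had 155, 192 and 224 CPM and 143, 154 and 192 CPM in ΔES27Lb, against 208, 212 and 270 CPM and 183, 167 and 271 CPM in wildtype. Their log2 differences were -0.27 (SE 0.293) and -0.35 (SE 0.309), and they lay below 0 in every alternative, between -0.49 and -0.14 for *PHB1* and between -0.58 and -0.10 for *PHB2*. *HLJ1*, a Hsp40 of the ER membrane, had 79.7, 81.5 and 90.5 CPM in ΔES27Lb, against 78.4, 84.4 and 83.3 CPM in wildtype. The values of both strains were close. *END3*, *SBP1*, *SHP1*, *TLG2* and *SCD6* had log2 differences between -0.26 and 0.16, each within 1 SE of 0. *ACT1* had a log2 difference of -0.05 (SE 0.307) and *TAF10*, another transcript used as a reference, of 0.36 (SE 0.306).

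The polysomal libraries are labelled as the same strains, and values in them are set beside those of total mRNA without a test. Of the 12 higher genes by p, 6 had all polysomal ΔES27Lb libraries above all wildtype ones as well (2.91% of all genes), and of the 12 lower genes 5 had them below (2.62%). Over all genes, 38 of the 284 that were separate and higher in total mRNA were so in both pools. Of the 225 separate and lower genes, 23 were. Total and polysomal mRNA may come from the same cultures, so the polysomal values are no independent repeat. *ARG1* had 171, 212 and 222 polysomal CPM in ΔES27Lb, against 119, 77.0 and 76.5 CPM in wildtype. *INO1* had 12.5, 8.80 and 13.9 polysomal CPM in ΔES27Lb, against 28.8, 36.9 and 66.4 CPM in wildtype. Both were separate in the same direction as in total mRNA. Among the 53 Gcn4-dependent genes, 9 were separate and higher in polysomal mRNA, and 6 of them were also separate in total mRNA, namely *HIS4*, *HIS5*, *LYS2*, *TRP3*, *ASN1* and *GDH1*. Of the mitochondrial ribosomal protein genes 8 were separate and lower in polysomal mRNA, 3 of them in both pools (*MRP7*, *MRPS35* and *NAM9*). Of the 138 ribosomal protein genes, 0 were separate and higher in polysomal mRNA, and their median log2 difference there was 0.14. The difference between the strain effects in total and in polysomal mRNA passed an adjusted p of 0.05 in edgeR for 0 genes, and the unadjusted p of *RDN37-1* was 0.000221.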

How the data were processed

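Per the labels and the methods, the authors enriched poly(A)-containing RNA, prepared stranded libraries, used FastQC, HISAT2 and featureCounts (submitters' processing notes) on the BY4742 build. Each deposited file holds the unnormalized counts of 1 library. Versions, the strand setting and the treatment of reads with several matches are not given in the sources used here. Names and coding lengths came from the R64 annotation, matched by systematic name for 6048 of 7126 IDs, and 6013 had a coding length. Since the builds differ, no coordinates or sequences are given.

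Groups came from the titles. The 6 total mRNA libraries were fitted with the quasi-likelihood test of edgeR 4.0.16 (R 4.3.3, TMM factors, default filter on low counts, no block), as ΔES27Lb over wildtype, with Benjamini-Hochberg adjustment over all 5989 genes and a threshold of 0.05. Levels of single libraries are TMM-scaled CPM, and log2 CPM used a prior count of 0.5. The interaction with polysomal mRNA came from a fit of all 12 libraries. That fit takes the pools as independent, which overstates its degrees of freedom if they share cultures. Same-numbered libraries of the strains deviated together (r = 0.181, 0.389 and 0.426 for replicates 1, 2 and 3 over 5240 genes whose mean log2 CPM was 3 or more). A block on the replicate numbers was an alternative, and the blocked value is given where it moved a printed count by over 1.5 times. ΔES27Lb replicate 2 also deviated with wildtype replicate 1 (r = 0.359), more than replicate 1 of both strains did. These correlations therefore do not settle whether the numbers pair the libraries. Counts between replicates differed by more than sampling noise.

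Alternatives were DESeq2 1.42.0, its size factors in edgeR, library totals alone, no filter, at least 10 counts in every library, all 12 libraries, the replicate block, offsets for coding length and GC content (loess, span 0.5) without and with the block, and leaving out each library. DESeq2 with the block and leaving out both ΔES27Lb replicate 3 and wildtype replicate 1 were chosen after seeing the data. Genes named are those called by either tool, the 12 higher and 12 lower with the smallest p at a mean log2 CPM not under 3, up to 4 per gene list with an unadjusted p of 0.05 or less, the genes the study followed, the rDNA and *ASP3* genes and *URA3*. Genes named for separate libraries, *TRP1*, *LEU2*, *RPL9A*, *21S_rRNA* and the other calls of DESeq2 with the block were picked once their values had been seen. The comparison, the gene lists and the rule were chosen with earlier results of these data known. The test was checked on simulated data. Plots were drawn with matplotlib 3.10.9.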

Additional observations from a re-analysis of the deposited data

How the results depend on the processing

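edgeR called 0 genes under every alternative fitted, whereas DESeq2 called 4 and DESeq2 with the replicate block 13. The genes at an unadjusted p of 0.05 or less, 89 higher and 69 lower, became 145 higher in DESeq2, 42 higher with library totals alone, 51 higher with length and GC offsets, 214 higher and 137 lower with all 12 libraries, 171 higher and 112 lower with the replicate block, 243 higher and 107 lower in DESeq2 with the replicate block, and 31 higher and 37 lower without wildtype replicate 1 and ΔES27Lb replicate 3. Leaving out each library gave 36 to 399 higher and 32 to 409 lower, the low ends without wildtype replicate 1 (36 higher) and ΔES27Lb replicate 3 (32 lower) and the high ends without wildtype replicate 3. Library totals alone moved the median of all genes to -0.13 and the genes with separate libraries from 284 and 225 to 158 higher and 345 lower. Of 57 named genes with a difference above its SE, 2 changed sign. Leaving out each library moved *HXT3* between -2.88 and 0.09, with 0.09 without wildtype replicate 1, and it was at 0.17 without that library and ΔES27Lb replicate 3, and *TAF10* was at -0.03 with length and GC offsets and at -0.01 with these offsets and the replicate block. The replicate block changed no other call of edgeR. The fit of all 12 libraries takes total and polysomal mRNA of a strain as independent, so it has more degrees of freedom. Why these alternatives differ was not tested. Length and GC offsets brought the median of ribosomal protein genes to 0.23.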

Other observations

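The marker genes of the plasmid system were among the most abundant in both strains. *URA3*, which selects for the rDNA plasmid, had 20323, 17643 and 22371 CPM in ΔES27Lb, against 25538, 24815 and 16163 CPM in wildtype, and it was number 3 of all genes by counts per kilobase of coding length. *TRP1*, the marker of the plasmid that the methods describe as replaced, had 6547, 4922 and 6363 CPM in ΔES27Lb, against 3656, 4586 and 9532 CPM in wildtype, and was number 12. Both overlapped between the strains (log2 differences -0.14, SE 0.362, and 0.01, SE 0.421). *LEU2*, which lies on neither plasmid in the methods, had 106, 52.6 and 88.6 CPM in ΔES27Lb, against 60.7, 56.4 and 55.1 CPM in wildtype. The counts do not tell which copy of a marker the reads came from.

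Reads on tRNA genes, a group chosen after its values were seen, were few but higher in ΔES27Lb. Of 299 tRNA IDs 36 were above the filter, 32 of them had a higher mean in ΔES27Lb, and their median log2 difference was 1.20 (0.71 without ΔES27Lb replicate 3). Their summed level was 88.87, 56.22 and 143.5 CPM in ΔES27Lb, against 40.8, 50.58 and 49.4 CPM in wildtype. The sums were separate, with ΔES27Lb replicate 2 close to wildtype. An ID this low can pass the filter through the libraries of a single strain, so the share of higher IDs may be partly set by the filter. Poly(A) selection removes mature tRNA, and whether these reads are of tRNA or of overlapping transcripts was not tested. The snoRNA genes *snR38* and *snR54* went the other way, with 0.511, 0.724 and 0.166 CPM and 1.58, 0.828 and 0.166 CPM in ΔES27Lb, against 9.78, 4.69 and 0.584 CPM and 15.1, 3.20 and 1.42 CPM in wildtype. Wildtype replicate 3 lay within the range of ΔES27Lb for both. Genes this low can pass the filter through the libraries of a single strain.

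*CSM1*, which encodes a nucleolar monopolin subunit that anchors the rDNA, had 40.0, 36.7 and 60.7 CPM in ΔES27Lb, against 10.8, 24.9 and 30.5 CPM in wildtype. Its libraries were separate (log2 difference 1.05, SE 0.389, unadjusted p 0.023, adjusted p 0.92). It was the only one of 13 genes of rDNA silencing and nucleolar structure to be separate. Of these, 9 had a lower mean in ΔES27Lb, and the median was -0.07.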
